A study of Caenorhabditis elegans with 6 samples.

Results

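The genes described here carry names that begin with *math*, *bath* or *btb*, which WormBase gives to *Caenorhabditis elegans* genes for proteins with a MATH domain, with both a BTB and a MATH domain, or with a BTB domain. All genes with such a name followed by a number were taken from the count tables, and those with at least 10 counts summed over the 6 libraries were kept. Of 46904 genes in the tables, 115 had such a name, and 93 of them passed the minimum (29 *math*, 43 *bath* and 21 *btb* genes). RNA was taken from whole wild-type hermaphrodites of the Bristol N2 strain that were moved to the test plates at 3 days of age and fed there for 5 days. The diets were *E. coli* OP50 mixed with the nisin-producing *Lactococcus lactis* strain LL12007 (OP50 + LL12007), OP50 mixed with the strain LL100933, which makes no nisin (OP50 + LL100933), and OP50 alone, with 2 libraries of each. About 200 worms were pooled per group. Whether the libraries within each diet were grown as separate cultures is not stated. A p-value here sets a difference between diets against the variation among libraries, pooled over the diets, and that variation may be technical. The comparisons ask whether either *Lactococcus* supplement changed the RNA of these genes and whether the strains differed.

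Proteins with a BTB domain can bind CUL-3, a cullin scaffold of ubiquitin ligases, and those that also have a MATH domain use it to hold the substrate that the ligase then marks with ubiquitin. RBX-1 brings the ubiquitin-conjugating enzyme to the cullin, NEDD8 bound to the cullin activates the ligase, and the COP9 signalosome takes NEDD8 off again. *C. elegans* has many more MATH-BTB genes than vertebrates, in tandem arrays, much as it has many genes for F-box proteins, the substrate adaptors of another class of cullin ligase. The best known worm member, MEL-26, hands the katanin subunit MEI-1 to CUL-3 in the early embryo, and it carries a name outside the rule used here.

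The libraries held between 14929196 and 21691687 counts in genes. In the first principal component of log counts, which took 54.9% of the variance, replicate 2 of OP50 lay farthest out (-42.5, against -17.7 for replicate 1 of OP50 and between -1.66 and 27.2 for the other 4), so the results that rest on it are also given without it. Markers of the germline, sperm, intestine, body wall muscle, neurons and the hypodermis were present in all groups, with no marker found in the tables at 0 over the 6 libraries. The 20 germline markers had a summed level of 8076 and 7094 CPM (counts scaled to library size) with OP50 + LL12007, 9239 and 7978 CPM with OP50 + LL100933, and 10915 and 12210 CPM with OP50. In RNA of whole worms, fewer cells of a type and less RNA per cell cannot be told apart.

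Between 91 and 93 of the 93 genes had a count in any one library. Together they took 0.114% and 0.114% of the counts with OP50 + LL12007, 0.122% and 0.126% with OP50 + LL100933, and 0.122% and 0.139% with OP50. Levels were very uneven. On the TPM scale, which corrects for gene length and gives every library the same sum, the mean level over the 6 libraries ran between 0.136 and 130 TPM, with a median of 3.53 TPM. A mean of 10 TPM or more was reached by 21 genes, 51 lay between 1 and 10 TPM, and 21 lay below 1 TPM. The median was 2.79 TPM for *math*, 4.18 TPM for *bath* and 3.28 TPM for *btb* genes, and no *btb* gene exceeded 17.6 TPM.

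**Figure D1:**
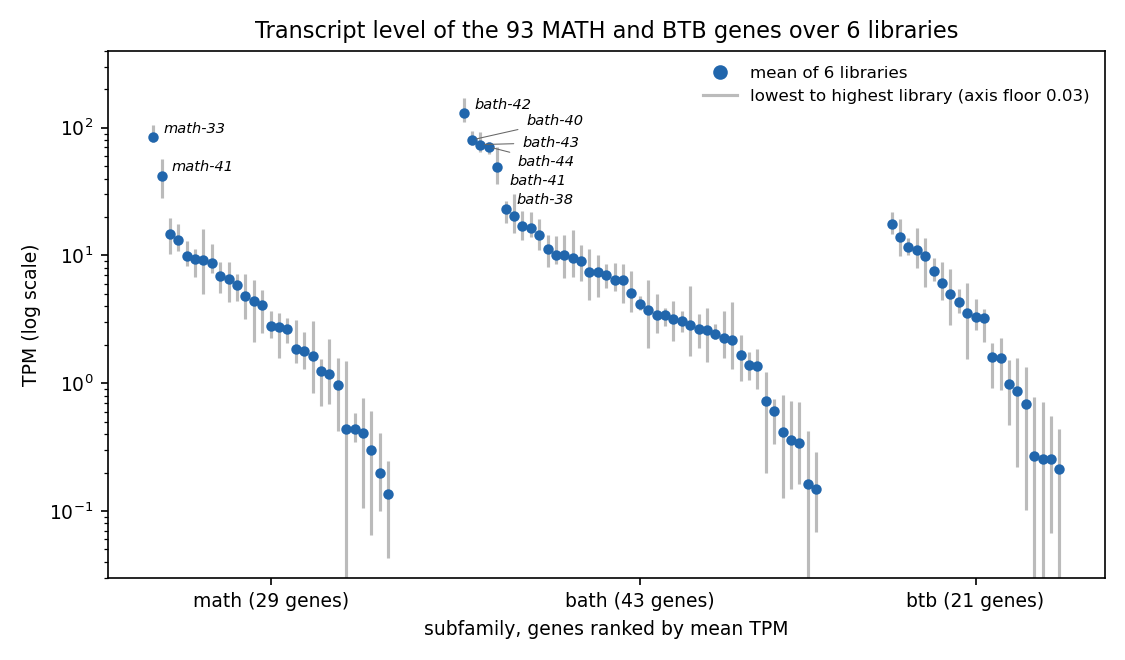
Mean level of each of the 93 genes over the 6 libraries in TPM on a log scale, ranked within the *math*, *bath* and *btb* subfamilies, with gray lines between the lowest and the highest library. The levels span 0.136 to 130 TPM, and the 8 named genes stand above the rest.

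The 8 genes with the highest mean TPM held 68.9% of all counts of the 93 genes. The highest was *bath-42*, at 130 ± 23.2 TPM (SD over the 6 libraries), followed by *math-33* at 84.5 ± 10.1 TPM, *bath-40* at 80.3 ± 7.90 TPM, *bath-43* at 73.7 ± 10.8 TPM and *bath-44* at 70.7 ± 5.69 TPM. Below them came *bath-41* at 49.5 ± 12.5 TPM, *math-41* at 42.2 ± 12 TPM and *bath-38* at 23.3 ± 3.46 TPM. The lowest library of *bath-42* (110 TPM) lay above the highest library of *math-33* (105 TPM), whereas the ranges of *math-33*, *bath-40*, *bath-43* and *bath-44* overlapped one another. BATH-43 is the worm homolog of human SPOP, a MATH-BTB adaptor of CUL3. MATH-33 is the homolog of the deubiquitylase USP7 and acts on the transcription factor DAF-16, so that it removes ubiquitin where the adaptors help to add it.

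These genes cluster on the left arm of chromosome II, and 7 of the 8 most abundant ones lie outside the cluster. Of the 93 genes, 70 lay on chromosome II before 4 Mb (coordinates as in the count tables, build ce11, which is WBcel235). A single stretch between positions 1510288 and 2155220, with no gap of more than 100000 bases between neighbors, held 72 of the 115 named genes and 52 of the 93 (26 *math*, 18 *bath* and 8 *btb* genes). Genes before 4 Mb had a median of 3.41 TPM and a maximum of 42.1 TPM, which was *math-41*. The 23 genes elsewhere had a median of 4.18 TPM and a maximum of 130 TPM, and 7 of the 8 most abundant genes were among them.

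Another 22 named genes fell below the minimum of 10 counts. They were 20 *math* genes, 1 *bath* and 1 *btb* gene, and 19 of the *math* genes lay on chromosome II between positions 1706709 and 2046656. The 4 genes *math-2*, *math-17*, *math-19* and *math-47* had no count in any library, which allows a level of up to 0.0285 CPM over the 105366622 counts (a limit of 3 counts, for counting error only). A run of 13 *math* genes between positions 1866386 and 1891699 included 9 genes with 0 to 2 counts each beside *math-8*, *math-10*, *math-14* and *math-15*, which had 15, 75, 221 and 86 counts over the 6 libraries. Ensembl release 115 annotates 24 of the 115 named genes as pseudogenes, 14 of them among the 93. At the minimum itself, *bath-8* (10 counts), *math-31* (11 counts) and *bath-25* (12 counts) were just inside, and *bath-18* (9 counts) and *math-46* (8 counts) just outside.

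Of the 93 genes, 77 passed edgeR's filter on low counts and entered the tests (23 *math*, 37 *bath* and 17 *btb* genes). The 16 left out had between 10 and 41 counts over the 6 libraries. The filter keeps a gene that is high in only 1 group, so the 77 do not stand for all 93. Below, a gene is called where its p-value from edgeR's quasi-likelihood test, adjusted by Benjamini and Hochberg over the 14899 genes tested, is under 0.05. Normalized counts are corrected for library size and composition, fold changes are on the log2 scale, and their standard errors (SE) follow the sign ±. Permuting 2 libraries against 2 gives no two-sided exact p below 0.333, so no such test was used.

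With OP50 + LL12007, 9 of the 77 genes were called against OP50, 8 of them lower and 1 higher. The 8 lower genes were *bath-28*, *bath-30*, *bath-41*, *bath-42*, *btb-3*, *btb-10*, *btb-16* and *btb-20*, and the higher one was *math-41*. They made up 10.4% (lower) and 1.30% (higher) of the 77 genes, where 7.71% of all genes tested were called lower and 8.76% higher. By edgeR, the share called lower was thus close to the background, and the share called higher was below it. DESeq2 gave an adjusted p to 50 MATH and BTB genes and called 9 lower (18%) and 1 higher (2%). Of all genes it called 10.3% lower and 12% higher. Its calls shared 8 of the 9 genes called by edgeR and added *bath-1* and *math-38*, both lower. The 9 genes called by edgeR kept their direction when any 1 of the 6 libraries was left out. Without replicate 1 or without replicate 2 of OP50 + LL12007, however, edgeR called none of them, and no gene of the whole table was called lower. At an unadjusted p under 0.05, 2 MATH and BTB genes were then higher (2.50%, beside 12.8% of all genes) and 13 lower (16.2%, beside 11.2%) without replicate 1. Without replicate 2, 1 was higher (1.28%, beside 10.1%) and 10 lower (12.8%, beside 6.41%). With all 6 libraries 5 were higher (6.49%, beside 18.8%) and 21 lower (27.3%, beside 18.1%) at this p. Without replicate 2 of OP50 there were 4 lower calls (*bath-28*, *bath-41*, *bath-42* and *btb-10*) beside *math-41*, and 3.15% of all genes were called lower and 4.70% higher.

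**Figure D2:**
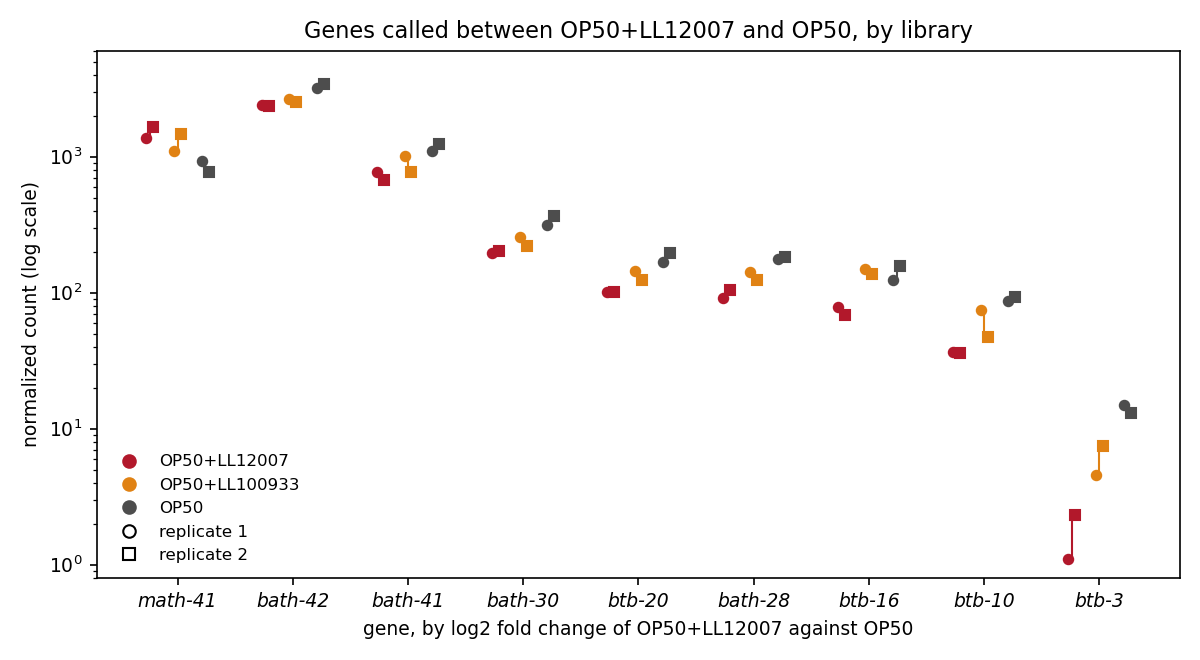
Normalized counts (log scale) of the 9 genes called between OP50 + LL12007 and OP50 in each of the 6 libraries, with the diets left to right as OP50 + LL12007, OP50 + LL100933 and OP50, and circles and squares for replicates 1 and 2. In every gene both libraries of OP50 + LL12007 lie apart from both of OP50.

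*bath-42*, the most abundant of the 93 genes, lies on chromosome III between positions 8161449 and 8163383. It had 2410.0 and 2366 normalized counts with OP50 + LL12007, 2652 and 2537 with OP50 + LL100933, and 3206.5 and 3442 with OP50. The 3 diets did not overlap. The log2 fold change was -0.48 ± 0.10 with OP50 + LL12007 (edgeR adjusted p = 0.0245) and -0.36 ± 0.10 with OP50 + LL100933 (adjusted p = 0.0639), each against OP50.

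*bath-41*, also on chromosome III (positions 6720415 to 6722258), had 772 and 671 normalized counts with OP50 + LL12007, 1002 and 771 with OP50 + LL100933, and 1098.5 and 1240.1 with OP50. The libraries of the supplemented worms all lay below those of OP50, and replicate 2 of OP50 + LL100933 reached the level of OP50 + LL12007. Its log2 fold change was -0.70 ± 0.15 with OP50 + LL12007 (edgeR adjusted p = 0.0243) and -0.40 ± 0.15 with OP50 + LL100933 (adjusted p = 0.107). Its exons overlap those of a gene on the opposite strand, F37A4.3, and the strand setting of the counting is not given in the sources used here.

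*bath-28* and *bath-30* are neighbors on the minus strand of chromosome II (positions 3343710 to 3344967 and 3345218 to 3346378). *bath-28* had 91.8 and 105 normalized counts with OP50 + LL12007, 141 and 123 with OP50 + LL100933, and 177 and 184 with OP50. *bath-30* had 197 and 203 with OP50 + LL12007, 256 and 218 with OP50 + LL100933, and 312 and 366 with OP50. In both genes the diets lay apart in the same order, with OP50 + LL12007 lowest and OP50 + LL100933 between. The log2 fold changes with OP50 + LL12007 were -0.88 ± 0.20 for *bath-28* (edgeR adjusted p = 0.0251) and -0.76 ± 0.17 for *bath-30* (edgeR adjusted p = 0.0245). With OP50 + LL100933 they were -0.45 ± 0.19 and -0.51 ± 0.16, and neither was called (edgeR adjusted p = 0.145 and 0.0771). *bath-28* shares exon bases with F14D2.15 on the same strand, so its counts may be split with that gene.

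The *btb* genes have the domain that binds a cullin without the MATH domain that holds a substrate. *btb-16*, in the group of *btb* genes at position 3296908 of chromosome II, had 78.5 and 68.0 normalized counts with OP50 + LL12007, 149.6 and 137 with OP50 + LL100933, and 123 and 157 with OP50. OP50 + LL100933 overlapped with OP50, and both libraries of OP50 + LL12007 lay well below either diet. The log2 fold change against OP50 was -0.93 ± 0.22 with OP50 + LL12007 (edgeR adjusted p = 0.0285) and 0.04 ± 0.21 with OP50 + LL100933 (adjusted p = 0.917). The difference between the *Lactococcus* diets, -0.97 ± 0.22, did not pass the adjustment (edgeR adjusted p = 0.208).

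*btb-10* (chromosome II, positions 1059664 to 1060802) had 36.5 and 35.7 normalized counts with OP50 + LL12007, 74.3 and 47.1 with OP50 + LL100933, and 86.6 and 92.98 with OP50. The 3 diets were apart, and the libraries of OP50 + LL100933 differed most from each other. Its log2 fold change was -1.31 ± 0.29 with OP50 + LL12007 (edgeR adjusted p = 0.0248) and -0.55 ± 0.27 with OP50 + LL100933 (adjusted p = 0.196). *btb-20*, near the other end of chromosome II (positions 14522385 to 14523522), had 102 and 100.3 normalized counts with OP50 + LL12007, 145 and 124 with OP50 + LL100933, and 168 and 194 with OP50. The order of the diets was that of *btb-10*, with log2 fold changes of -0.84 ± 0.20 (edgeR adjusted p = 0.0279) and -0.42 ± 0.19 (adjusted p = 0.167) against OP50.

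*btb-3*, which Ensembl annotates as a pseudogene (chromosome II, positions 2043089 to 2044087), rested on few reads. It had 1 and 2 counts with OP50 + LL12007, 5 and 7 with OP50 + LL100933, and 18 and 13 with OP50. The level with OP50 + LL12007 was 0.120 times that with OP50, with an exact 95% interval of 0.0234 to 0.384 for counting error only. edgeR's log2 fold change of -2.97 ± 0.73 (adjusted p = 0.0295), for which the fit adds a small count, rested on 3 counts with OP50 + LL12007.

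*math-41* (chromosome II, positions 1824629 to 1830195) was the one gene called higher. It had 1369 and 1636.5 normalized counts with OP50 + LL12007, 1094 and 1478 with OP50 + LL100933, and 934 and 770.1 with OP50. Both *Lactococcus* diets lay above OP50 and overlapped each other. The log2 fold change was 0.82 ± 0.17 with OP50 + LL12007 (edgeR adjusted p = 0.0240) and 0.59 ± 0.17 with OP50 + LL100933 (adjusted p = 0.0623, and 0.0246 by DESeq2). The nearby *math-39* had 50.9 and 66.8 normalized counts with OP50 + LL12007, 56.2 and 57.8 with OP50 + LL100933, and 45.8 and 29.3 with OP50, with both *Lactococcus* diets above OP50, and was not called (edgeR adjusted p = 0.168 and 0.219).

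Across the 77 genes the *bath* and *btb* subfamilies lay below 0 with OP50 + LL12007, and the *math* genes did not. The log2 fold change against OP50 was negative in 33 of 37 *bath* genes (median -0.49), in 15 of 17 *btb* genes (median -0.60) and in 8 of 23 *math* genes (median 0.13). The median over all genes tested was 0.02, and the median over the 77 genes was -0.35, or -0.24 without replicate 2 of OP50. Both libraries of OP50 + LL12007 lay below both of OP50 in 39 of the 77 genes (50.6%) and above them in 7 (9.09%), where the background was 33.9% below and 34.6% above. The 39 were 21 *bath*, 14 *btb* and 4 *math* genes, and the 7 were all *math* genes. These counts are a description: the genes are not replicates, and no test was made over the list.

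The sign of the *math* median depended on single libraries. It was -0.03 without replicate 1 of OP50, 0.26 without replicate 2 of OP50, 0.22 without replicate 1 of OP50 + LL12007 and 0.02 without replicate 2 of OP50 + LL12007. In the same 4 fits the *bath* median ran between -0.55 and -0.32 and the *btb* median between -0.65 and -0.54.

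**Figure D3:**
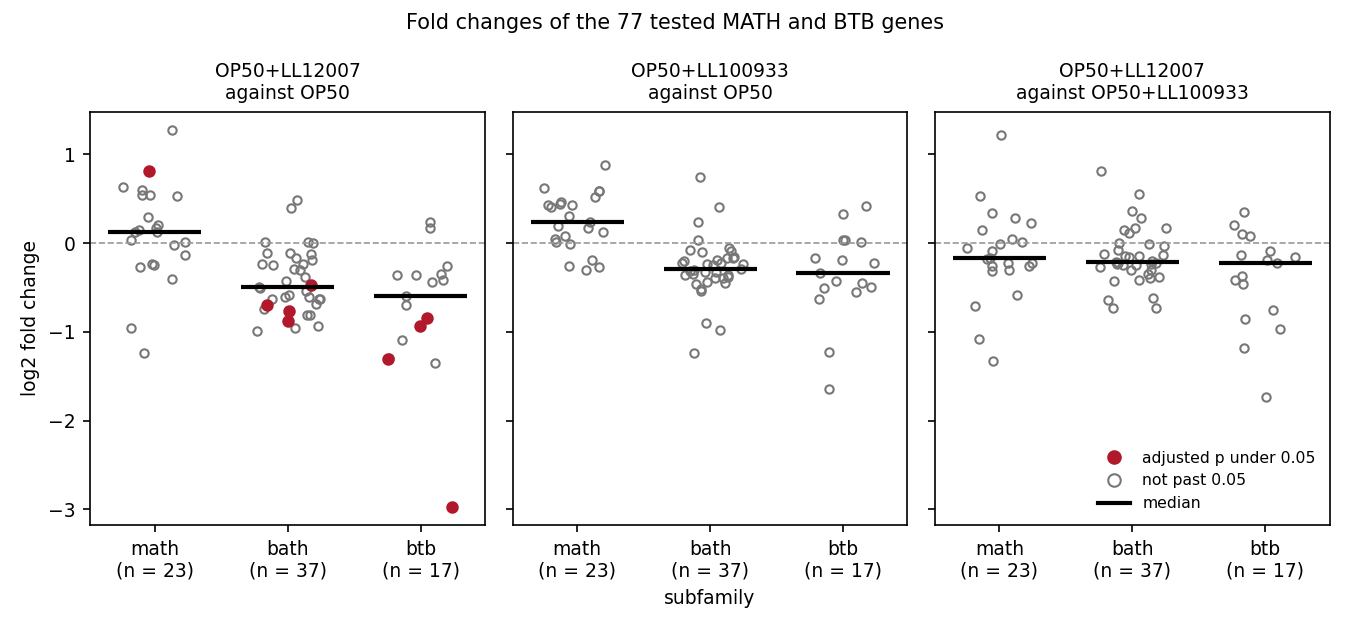
Log2 fold changes of the 77 tested genes by subfamily in the 3 comparisons, with filled red points for edgeR adjusted p under 0.05 and a black line for each median. The *bath* and *btb* points lie mostly below 0 in all 3 panels, and calls appear only for OP50 + LL12007 against OP50.

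Besides the called genes, the lowest fold changes with OP50 + LL12007 among genes whose libraries did not overlap were in genes with few counts. *btb-12* had 5.53 and 4.61 normalized counts with OP50 + LL12007, 14.5 and 8.57 with OP50 + LL100933, and 15.8 and 10.1 with OP50. *btb-1*, annotated as a pseudogene, had 3.32 and 9.22 with OP50 + LL12007, 7.25 and 2.14 with OP50 + LL100933, and 16.6 and 14.1 with OP50. *math-10* had 5.53 and 6.91 with OP50 + LL12007, 15.4 and 16.1 with OP50 + LL100933, and 10.8 and 19.2 with OP50. None of the 3 was called (edgeR adjusted p between 0.137 and 0.184). At the other end, *math-15* had 21.005 and 27.7 normalized counts with OP50 + LL12007, 9.07 and 11.8 with OP50 + LL100933, and 10.8 and 9.10 with OP50. Only OP50 + LL12007 stood apart in *math-15*, which lies in the same run of genes as *math-10*, and it was not called either (log2 fold change 1.27 ± 0.45, edgeR adjusted p = 0.0771). *math-26* and *math-3*, near position 1772085 of chromosome II, had log2 fold changes of 0.59 ± 0.22 and 0.54 ± 0.24 (edgeR adjusted p = 0.0962 and 0.134). *math-3* shares 20 exon bases with *math-26*, 227 with *math-27* and 551 with F36H5.14. All lie on the same strand, so its counts may be split with these genes.

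Abundant and weak genes had similar medians. Genes with a mean of 10 TPM or more had a median log2 fold change of -0.36 with OP50 + LL12007 against OP50 (21 genes), and the tested genes below 10 TPM had -0.32 (56 genes). The SE of the 77 fold changes ran between 0.10 and 0.73. Of the 9 calls, 6 were in genes of 10 TPM or more.

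**Figure D4:**
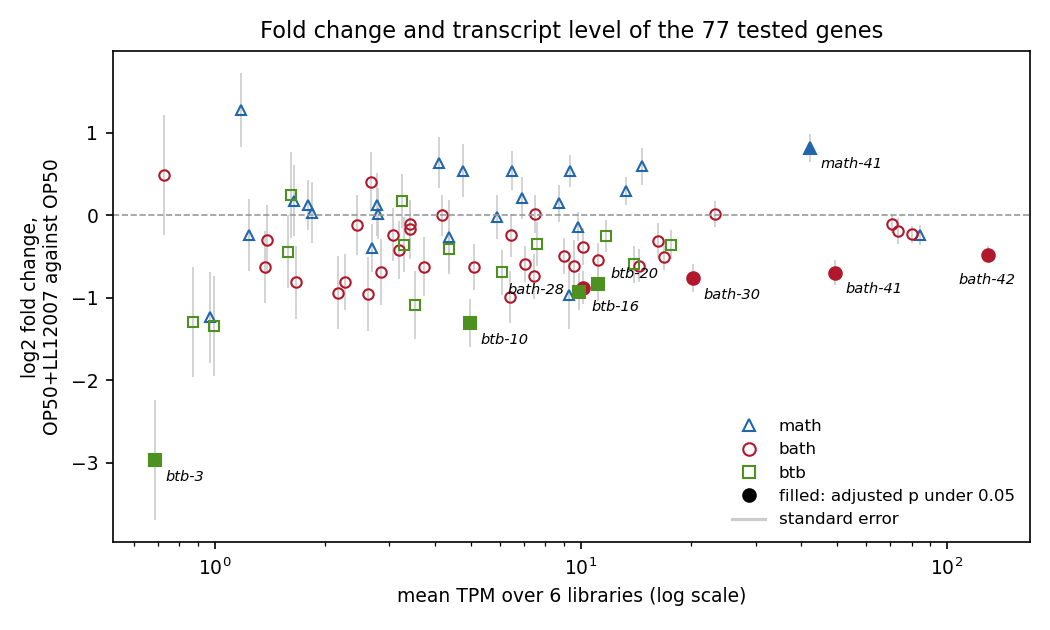
Log2 fold change of OP50 + LL12007 against OP50 for the 77 tested genes against their mean TPM (log scale), with gray bars of 1 SE, symbols for the subfamily and filled symbols for edgeR adjusted p under 0.05. The calls run from *btb-3* at -2.97 to *math-41* at 0.82, and 6 of the 9 lie at 10 TPM or more.

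The other 5 of the 8 most abundant genes were not called. *math-33* had 4246 and 4061 normalized counts with OP50 + LL12007, 4515 and 4087 with OP50 + LL100933, and 4615.5 and 5221 with OP50. Both *Lactococcus* diets lay below OP50, with log2 fold changes of -0.24 ± 0.12 with OP50 + LL12007 (edgeR adjusted p = 0.174) and -0.19 ± 0.12 with OP50 + LL100933 (adjusted p = 0.297). *bath-43* had 1578 and 1381 with OP50 + LL12007, 1811 and 1433 with OP50 + LL100933, and 1484 and 1889.9 with OP50, and the diets overlapped. *bath-44* and *bath-38* had log2 fold changes between -0.11 and 0.24 against OP50, each *Lactococcus* diet overlapping with OP50, and in both genes OP50 + LL12007 lay below OP50 + LL100933. *bath-40* had -0.23 ± 0.10 and -0.15 ± 0.10 (edgeR adjusted p = 0.122 and 0.311). A p that misses the threshold does not show that their levels were equal.

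With OP50 + LL100933, none of the 77 genes was called against OP50 by edgeR, in either direction, where 2.24% of all genes tested were called lower and 4.38% higher. At an unadjusted p under 0.05 there were 3 higher (3.90%) and 7 lower genes (9.09%) among the 77, both below the 15.6% higher and 15.8% lower of all genes tested. DESeq2 gave an adjusted p to 38 MATH and BTB genes and called 1 higher (*math-41*) and 0 lower. These are 2.63% and 0%, beside 8.62% higher and 5.11% lower of all genes. The lowest edgeR adjusted p among the 77 was 0.0623. Calls did appear among the MATH and BTB genes when an OP50 library was left out. *math-38*, named below, had 11.17 and 11.89 TPM with OP50 + LL100933. Both lay between its OP50 libraries, at 5.65 TPM in replicate 1 and 16.25 TPM in replicate 2. Its call thus came with the higher OP50 library left out. Without replicate 1 of OP50, *math-41* was called higher and *bath-21*, *bath-30*, *bath-34* and *bath-42* lower, where 1688 of 15308 genes were called higher and 1038 lower. Without replicate 2 of OP50, *bath-47* and *math-38* were called higher, where 3.91% of all genes were called higher. Without either library of OP50 + LL100933, no gene of the whole table was called lower.

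The signs by subfamily were again uneven. The log2 fold change was negative in 33 of 37 *bath* genes (median -0.29), in 12 of 17 *btb* genes (median -0.34) and in 5 of 23 *math* genes (median 0.24), with a median over all genes of 0.02. Over the 77 genes the median was -0.20, and it was -0.08 without replicate 2 of OP50. With each library left out in turn, the median ran between 0.12 and 0.39 for *math*, between -0.35 and -0.19 for *bath* and between -0.54 and -0.19 for *btb* genes. The values nearest 0 came without replicate 2 of OP50 + LL100933 for *math* and *btb*, and without replicate 2 of OP50 for *bath* genes. Both libraries of OP50 + LL100933 lay below both of OP50 in 32 of the 77 genes (41.6%) and above them in 11 (14.3%), beside backgrounds of 29.9% and 29.2%. The 11 were 8 *math* genes, 2 *bath* genes and 1 *btb* gene. The comparisons of both diets share the OP50 libraries, so the likeness of their values is not independent evidence.

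*bath-47* (chromosome II, position 1601789) was highest with OP50 + LL100933. It had 160.3 and 175 normalized counts with OP50 + LL12007, 262 and 297 with OP50 + LL100933, and 129 and 205 with OP50. OP50 + LL100933 stood above both other diets, while OP50 + LL12007 lay within the range of OP50. The log2 fold change was 0.75 ± 0.22 with OP50 + LL100933 against OP50 (edgeR adjusted p = 0.0676) and -0.73 ± 0.23 with OP50 + LL12007 against OP50 + LL100933 (adjusted p = 0.333). *math-34* had 33.2 and 26.5 normalized counts with OP50 + LL12007, 35.4 and 63.2 with OP50 + LL100933, and 19.1 and 34.4 with OP50. *math-21* had 25.4 and 28.8 with OP50 + LL12007, 30.8 and 51.4 with OP50 + LL100933, and 25.8 and 27.3 with OP50. In both, replicate 2 of OP50 + LL100933 made most of the difference, and neither was called (edgeR adjusted p = 0.170 and 0.255 with OP50 + LL100933 against OP50).

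At the lower end, *bath-21* had 22.1 and 29.96 normalized counts with OP50 + LL12007, 17.2 and 18.2 with OP50 + LL100933, and 29.1 and 55.6 with OP50. The OP50 libraries were far apart, and the log2 fold change with OP50 + LL100933 was -1.24 ± 0.42 (edgeR adjusted p = 0.0862). *bath-34* and *bath-35* lie close together on chromosome I. *bath-34* had 40.9 and 69.1 normalized counts with OP50 + LL12007, 32.6 and 53.5 with OP50 + LL100933, and 69.1 and 101 with OP50. *bath-35* had 16.6 and 24.2 with OP50 + LL12007, 25.4 and 16.1 with OP50 + LL100933, and 28.3 and 50.5 with OP50. Neither was called with either diet (edgeR adjusted p between 0.102 and 0.224), and replicate 2 of OP50 was the highest library for *bath-21*, *bath-34* and *bath-35*. *bath-35* overlaps *amx-2* on the opposite strand.

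Between the *Lactococcus* diets, edgeR called none of the 77 genes (0 higher and 0 lower), where 0% of all genes tested were called higher and 0% lower. At an unadjusted p under 0.05 there were 1 higher (1.30%) and 5 lower genes (6.49%) with OP50 + LL12007 against OP50 + LL100933. The shares of all genes tested were 5.26% higher and 5.01% lower. DESeq2 gave an adjusted p to 66 MATH and BTB genes and called none of them, beside 0.636% higher and 0.514% lower of all genes. A fit of these 2 groups alone called 3 lower (*bath-47*, *btb-16* and *math-38*), as did the fits without either replicate of OP50. The whole table also gained calls in those fits, with 171 genes lower and 234 higher in the fit of 2 groups, 161 lower and 254 higher without replicate 1 of OP50, and 196 lower and 264 higher without replicate 2 of OP50. Both libraries of OP50 + LL12007 lay below both of OP50 + LL100933 in 35 genes (45.5%, background 21.9%) and above them in 3 (3.90%, background 24.6%). The median log2 difference was -0.20 over the 77 genes (-0.003 over all genes tested), and it was -0.11 without replicate 1 of OP50 + LL100933. The subfamily medians were -0.17 for *math*, -0.21 for *bath* and -0.22 for *btb* genes, and they depended on single libraries. In that order they were -0.26, -0.10 and -0.04 without replicate 1 of OP50 + LL100933, and -0.07, -0.23 and -0.46 without replicate 2 of OP50 + LL100933. Without replicate 1 of OP50 + LL12007 the *math* median was -0.06.

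The subfamily medians also differed in sign within the cluster on chromosome II. In the stretch between positions 1510288 and 2155220, the median log2 fold change with OP50 + LL12007 against OP50 was 0.13 for 21 tested *math* genes, -0.30 for 17 *bath* genes and -0.51 for 8 *btb* genes. With OP50 + LL100933 the medians were 0.24, -0.30 and -0.32 in the same order of subfamilies. Farther along the chromosome, between positions 3295414 and 3381403, all 8 tested *bath* and *btb* genes were below 0 with OP50 + LL12007 (median -0.68). Genes of other kinds in the region also had negative medians. The other 581 tested genes on chromosome II before 4 Mb had a median of -0.22 with OP50 + LL12007 and -0.08 with OP50 + LL100933. Of the 17 tested genes outside this region, 16 were below 0 with OP50 + LL12007 (median -0.42) and 14 with OP50 + LL100933 (median -0.23).

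The summed level of the *btb* genes was 64.2 and 59.3 CPM with OP50 + LL12007, 82.0 and 64.3 CPM with OP50 + LL100933, and 87.4 and 95.03 CPM with OP50. For the *bath* genes it was 616 and 582 CPM with OP50 + LL12007, 703 and 644 CPM with OP50 + LL100933, and 720.1 and 812 CPM with OP50. The *math* genes summed to 469.7 and 484 CPM with OP50 + LL12007, 459.9 and 502 CPM with OP50 + LL100933, and 447.5 and 476 CPM with OP50. The *bath* and *btb* sums ran in the order of the germline markers given above, OP50 highest and OP50 + LL12007 lowest on average, while the *math* sums overlapped between all diets.

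**Figure D5:**
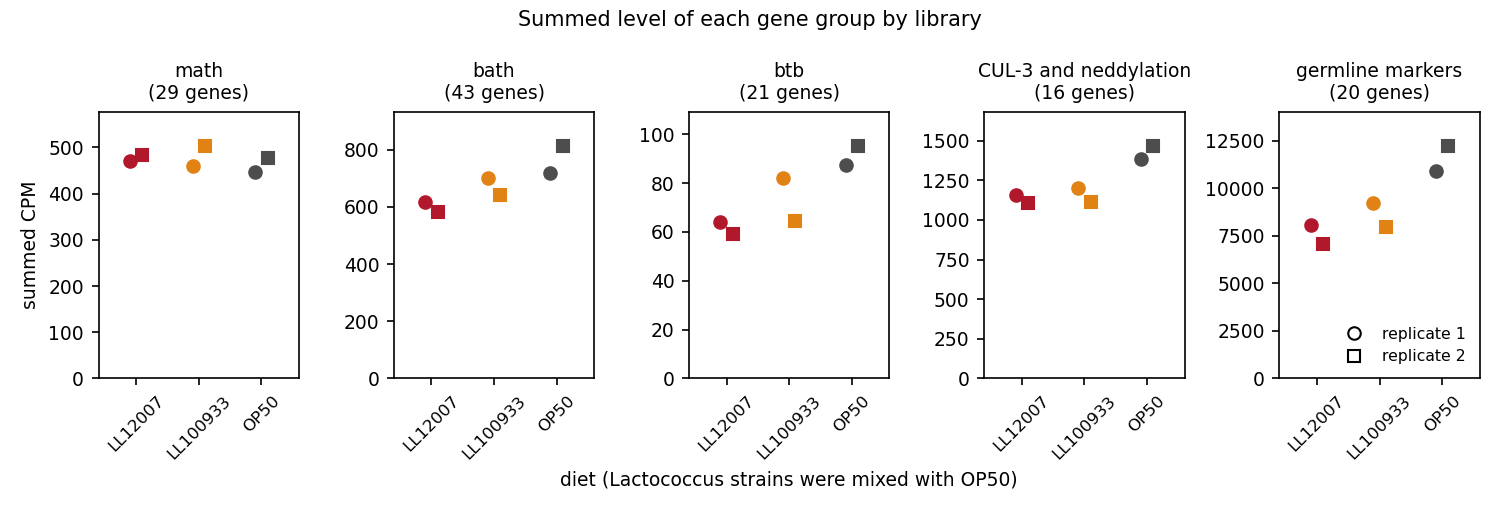
Summed CPM of the *math*, *bath* and *btb* genes, of 16 genes of the CUL-3 ligase and neddylation, and of 20 germline markers in each of the 6 libraries (circles, replicate 1, and squares, replicate 2), on axes that start at 0. The *bath*, *btb*, CUL-3 and germline sums are highest with OP50, and the *math* sums overlap between the diets.

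All 20 of 20 germline markers were below 0 against OP50 with OP50 + LL12007 (median -0.63, 19 called lower) and with OP50 + LL100933 (median -0.43, 3 called lower). None was called with OP50 + LL12007 when either of its own libraries was left out. With OP50 + LL100933, 13 were called without replicate 1 of OP50 and none without any other single library. In that comparison DESeq2 called 11 and a fit of the 2 groups alone called none. The *btb* sum amounted to 0.794% and 0.835% of the germline sum with OP50 + LL12007, 0.888% and 0.806% with OP50 + LL100933, and 0.801% and 0.778% with OP50. The *bath* sum amounted to 7.63% and 8.21% with OP50 + LL12007, 7.60% and 8.07% with OP50 + LL100933, and 6.60% and 6.65% with OP50. The *btb* percentages with OP50 + LL12007 overlapped those of both other diets, and those with OP50 + LL100933 lay above those with OP50. The *bath* percentages were higher with both *Lactococcus* diets than with OP50. Sperm markers summed to 11.9 and 13.7 CPM with OP50 + LL12007, 47.1 and 19.5 CPM with OP50 + LL100933, and 38.4 and 15.3 CPM with OP50. Of 20 sperm markers, 19 were below 0 with OP50 + LL12007 (median -1.41) and 4 with OP50 + LL100933 (median 0.23), none called. Body wall muscle markers ran the other way, at 13356 and 14156 CPM with OP50 + LL12007, 13823 and 14339 CPM with OP50 + LL100933, and 10911 and 8662 CPM with OP50. The part of the germline and of these other tissues in the levels of the MATH and BTB genes was not tested.

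The F-box genes named *fbxa*, *fbxb* and *fbxc* are another expanded family of substrate adaptors. Of 248 tested, 13 were called lower and 1 higher with OP50 + LL12007 against OP50 (5.24% and 0.403%), and 3 lower and 1 higher with OP50 + LL100933 against OP50 (1.21% and 0.403%). Their median log2 fold change was -0.38 with OP50 + LL12007 and -0.23 with OP50 + LL100933, beside -0.35 and -0.20 for the 77 genes. The medians of both families thus lay close together in each comparison, and the difference was not tested.

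A list of 16 genes of the CUL-3 ligase and of neddylation stood for the partners of the adaptors. It also held the adaptor gene *mel-26* and *mei-1*, the gene of its substrate. With OP50 + LL12007, 15 of 16 lay below 0 against OP50 (median -0.31), and 3 were called lower, where 7.71% of all genes tested were. With OP50 + LL100933, 16 of 16 lay below 0 (median -0.31), and again 3 were called lower, where 2.24% of all genes were. *mei-1*, the katanin subunit that MEL-26 delivers to CUL-3, had 1673 and 1575 normalized counts with OP50 + LL12007, 1745 and 1666.5 with OP50 + LL100933, and 2144 and 2617 with OP50. It was lower with both diets, with log2 fold changes of -0.55 ± 0.12 (edgeR adjusted p = 0.0245) and -0.48 ± 0.12 (adjusted p = 0.0474). *csn-3*, a subunit of the COP9 signalosome, had a log2 fold change of -0.45 ± 0.10 with either diet (edgeR adjusted p = 0.0271 with OP50 + LL12007 and 0.0431 with OP50 + LL100933).

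The activating enzyme for NEDD8 has the subunits RFL-1 and ULA-1. *rfl-1* was called lower with OP50 + LL12007 (-0.48 ± 0.14, edgeR adjusted p = 0.0471) and *ula-1* with OP50 + LL100933 (-0.44 ± 0.11, edgeR adjusted p = 0.0480). The scaffold gene *cul-3* had 2488.5 and 2467 normalized counts with OP50 + LL12007, 2647.5 and 2441 with OP50 + LL100933, and 2886 and 3308 with OP50, and was not called (edgeR adjusted p = 0.0766 and 0.126). *mel-26* had 1424 and 1581 with OP50 + LL12007, 1466 and 1566 with OP50 + LL100933, and 1803 and 1946.5 with OP50, and was not called either (-0.32 ± 0.11 and -0.31 ± 0.11, edgeR adjusted p = 0.0700 and 0.0966). OP50 stood above both *Lactococcus* diets in *cul-3* and in *mel-26*. The calls among the 16 genes changed when single libraries were left out, as did the lower calls of the whole table. With OP50 + LL12007 there were none without replicate 2 of OP50 or without either library of OP50 + LL12007, and 6 without replicate 1 of OP50. With OP50 + LL100933 there were 7 without replicate 1 of OP50 and none without any other single library, in a fit of the 2 groups alone, or with scaling by upper quartiles or library totals. RLE scaling left 2 (*csn-3* and *mei-1*), and either other filter on low counts left 1 (*csn-3*). *rfl-1* was not called under upper-quartile or library-total scaling, and DESeq2 called neither *rfl-1* nor *ula-1*.

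Among 10 other genes with a BTB or MATH domain, which again included *mel-26*, 9 were tested. Of these, *kel-8* and *hpo-9* were called with both diets against OP50. *kel-8*, a gene with BTB and kelch repeats, had 983 and 928 normalized counts with OP50 + LL12007, 1002 and 955 with OP50 + LL100933, and 553 and 590.2 with OP50. It was higher by 0.74 ± 0.11 with OP50 + LL12007 (edgeR adjusted p = 0.0193) and 0.78 ± 0.11 with OP50 + LL100933 (adjusted p = 0.0167). *hpo-9*, another BTB gene, had 754 and 756 with OP50 + LL12007, 788 and 743 with OP50 + LL100933, and 1044 and 1113 with OP50. Its log2 fold changes were -0.51 ± 0.11 (edgeR adjusted p = 0.0239) and -0.49 ± 0.11 (adjusted p = 0.0410). Neither *Lactococcus* diet overlapped with OP50 in these genes. *kel-8* was not called when a library of the *Lactococcus* diet in the comparison was left out. *hpo-9* was then not called either, nor was it without replicate 2 of OP50 in either comparison, nor with OP50 + LL100933 without either library of OP50 + LL12007 or in a fit of the 2 groups alone.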

How the data were processed

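The deposited values were whole-number counts of reads per gene, 1 table per library. As described by the authors, reads were trimmed, mapped to ce11 (WBcel235) and summed over exons. The submitters' processing notes name Trim Galore 0.6.5, Trimmomatic 0.39, cutadapt 2.7, STAR 2.7.2b and featureCounts 1.6.4. A stranded kit was used, but the strand setting of featureCounts and its handling of reads with several matches are not stated, so counts of tandem copies and of overlapping genes are uncertain. Of the 93 genes, 14 have an exon that overlaps another gene (8 on the same strand and 6 on the opposite one). Labels and paper disagree on the collection number of LL100933, and the name in the paper was used.

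Genes kept by filterByExpr were fitted in edgeR 4.0.16 (R 4.3.3) on all 6 libraries, with TMM factors between 0.970 and 1.04, a group term and robust quasi-likelihood dispersions. The SE was derived from the log2 fold change and the F statistic. TPM used the gene lengths in the tables. The code was also run on simulated counts with the same spread for all diets, a setting that does not cover diets of unequal spread. The genes and lists were chosen with earlier results of these data known. Named are all called genes, the 8 highest by TPM, the 5 largest rises and falls without overlap of each diet against OP50, *math-33*, *bath-43*, *mel-26*, *cul-3* and the called genes of the further lists. Other genes (*math-38*, *math-8*, *math-14*, *btb-21* and those newly called under an alternative) were named after their values were seen. Alternatives were other scalings (RLE, upper quartile, library totals), other filters, DESeq2 1.42.0, edgeR on 2 groups, a replicate block and leaving out each library. The alternatives without pseudogenes or overlapping genes, with crossed replicate numbers and by subfamily were chosen after seeing the data. Sequences were not used here.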

Additional observations from a re-analysis of the deposited data

Results flagged for a closer look

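*btb-21*, annotated as a pseudogene on chromosome V, moved one way with each strain. It had 9.95 and 14.98 normalized counts with OP50 + LL12007, 21.8 and 23.6 with OP50 + LL100933, and 15.8 and 18.2 with OP50. Both libraries of OP50 + LL12007 lay below both of OP50, and both of OP50 + LL100933 above. The log2 difference between the *Lactococcus* diets was -0.86 ± 0.43 and did not pass the adjustment over all genes (edgeR adjusted p = 0.527), so a difference between the strains was not shown.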

How the results depend on the processing

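With each library left out in turn, the MATH and BTB genes called with OP50 + LL12007 against OP50 numbered 0 to 3 higher and 0 to 12 lower (median log2 fold change -0.41 to -0.24). With OP50 + LL100933 against OP50 they numbered 0 to 2 higher and 0 to 4 lower (median -0.26 to -0.083). With OP50 + LL12007 against OP50 + LL100933 they numbered 0 higher and 0 to 3 lower (median -0.21 to -0.11). The 0 calls with OP50 + LL12007 came from leaving out either of its own libraries, and the 12 from leaving out replicate 1 of OP50. Without replicate 1 of OP50, the calls over all genes tested rose as well, in both directions and in each comparison. The 12 lower calls therefore do not by themselves set these genes apart from the whole table. edgeR on 2 groups only called 3 higher with OP50 + LL12007 against OP50 (4%, beside 7.6% of all genes). It called 10 lower in that comparison (13.3%, beside 8.54%). Between the *Lactococcus* diets it called 3 lower (4.05%, beside 1.18%) and 0 higher (0%, beside 1.61%). DESeq2 called 1 higher with OP50 + LL100933 against OP50 (2.63%, beside 8.62% of all genes). Under the other scalings and filters the counts of calls stayed within 1.5 times. The 9 genes called with OP50 + LL12007 against OP50 on all 6 libraries kept their sign under every alternative that tested them. With 2 libraries a group and a median SE of 0.29 on the log2 scale for OP50 + LL12007 against OP50, small changes in weak genes were not detectable at this depth.

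The labels do not pair the replicate numbers, and deviations from the group means correlated at -0.07 (OP50 + LL100933 with OP50), -0.12 (OP50 + LL12007 with OP50) and 0.29 (OP50 + LL12007 with OP50 + LL100933). With a replicate block, 1 MATH and BTB gene was called higher (1.3%) and 8 lower (10.4%) with OP50 + LL12007 against OP50. All genes tested were called at 6.56% higher and 6.34% lower. With OP50 + LL100933 against OP50 the calls were 0 and 0, beside 1.82% higher and 0.463% lower of all genes. Between the *Lactococcus* diets they were 0 and 0, beside 0% and 0%. Of the other genes called, *rfl-1* with OP50 + LL12007 and *mei-1*, *csn-3*, *ula-1* and *hpo-9* with OP50 + LL100933 were not called under the block. With the numbers of OP50 crossed, the calls with OP50 + LL12007 against OP50 were 3 higher (3.9%) and 13 lower (16.9%). All genes tested were then called at 14% higher and 13% lower. With OP50 + LL100933 against OP50 the calls were 2 higher (2.6%) and 3 lower (3.9%), beside 9.73% and 8.43% of all genes. Between the *Lactococcus* diets they were 0 and 0, beside 0.148% and 0.101%.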
